A study of Mus musculus with 6 samples.

Results

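The cytosolic HSP70 and HSP90 chaperones were described here through 10 genes, taken by gene name from the 46452 genes of a heart expression table: Hspa1a, Hspa1b, Hspa8, Hspa4, Hsph1, Dnaja1, Dnajb1, Hsp90aa1, Hsp90ab1 and Hsf1. All 10 were found. The table held 6 libraries made from hearts of 10-day-old mice, 3 labelled Nat10flox/flox and 3 labelled Nat10-CKO, a label for a conditional knockout of Nat10, which encodes an RNA acetyltransferase. Each group has 3 independent biological replicates by its labels, which do not state the Cre driver, the deleted exons or whether the Nat10flox/flox mice carried a Cre. Poly(A) RNA was sequenced as directional libraries. Expression was given as FPKM, a count of fragments corrected for the length of the gene and for a scale of each library. The series asks what NAT10 does in heart development, and the comparison below asks how the chaperone genes differed between the labelled groups.

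HSP70 proteins bind unfolded stretches of other proteins and release them in a cycle of ATP hydrolysis and nucleotide exchange. J-domain proteins bring clients to HSP70 and stimulate its ATPase, and the large HSP110 proteins exchange the nucleotide. HSP90 takes over partly folded clients such as kinases and steroid receptors. The transcription factor HSF1 is held inactive by chaperones, and when unfolded proteins occupy these it binds heat shock elements, alternating GAA and TTC units set apart by a pair of bases, and raises the transcription of inducible chaperone genes. In heart muscle, with its constant load of contractile protein turnover, inducible HSP70 is known for its rise after ischaemia and heat.

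Nat10 itself was measured at 3.75, 4.18 and 4.71 FPKM in the 3 Nat10flox/flox libraries and at 8.28, 8.66 and 10.2 FPKM in those labelled Nat10-CKO. It was thus higher in the libraries labelled as knockout, 2.14-fold by the means (log2 fold change 0.94 ± 0.12 SE, limma adjusted p = 0.00142), against what the label names. FPKM covers the whole gene and does not separate deleted from remaining exons, so each direction below refers to the labels only. The libraries held 31155521 to 38051266 reads in genes, and mitochondrially encoded genes took 16.6 to 18.3% of them in the Nat10flox/flox libraries and 7.56 to 9.26% in libraries labelled Nat10-CKO. Cardiomyocyte markers were high in all libraries, with 8 genes summing to 16382 to 18452 FPKM and to 9245 to 17127 FPKM in the same order of groups, and 2 of the 8, Pln and Tnni3, fell. Of 6 fibroblast markers 1, Dpt, was called lower and 0 were called higher. Their sum was 309 to 345 FPKM in Nat10flox/flox and 510, 488 and 330 FPKM in libraries labelled Nat10-CKO. All 6 endothelial markers and 3 of 6 mural markers fell, and 4 of 4 tested erythroid markers fell. Beside these marker counts, 16.0% of all tested genes were called lower. In bulk tissue, fewer cells of a type and less RNA per cell cannot be told apart. Nat10flox/flox replicate 1 stood apart: its ganglion neuron markers summed to 195.6 FPKM, against 3.29 and 3.63 in the other Nat10flox/flox libraries and 1.12 to 2.23 in those labelled Nat10-CKO. Nat10-CKO replicate 1 had the lowest cardiomyocyte sum, 9245 FPKM.

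The promoters of the members are shown first, because the heat shock element is the sequence through which HSF1 acts on this family. RefSeq promoter sequences (GRCm38.p6) were at hand for 6 of the 10 members: Hspa1a, Hspa1b, Hspa4, Hsph1, Dnaja1 and Dnajb1, and not for Hspa8, Hsp90aa1, Hsp90ab1 or Hsf1. The 250 bases before the first listed start are printed 5′ to 3′ on the gene's strand for the 4 genes with a 2-unit element (GAANNTTC or TTCNNGAA, in capitals) and for Hspa4, the member with the smallest adjusted p, which had none.
Hspa1a, chr17:34972157-34972406, minus strand: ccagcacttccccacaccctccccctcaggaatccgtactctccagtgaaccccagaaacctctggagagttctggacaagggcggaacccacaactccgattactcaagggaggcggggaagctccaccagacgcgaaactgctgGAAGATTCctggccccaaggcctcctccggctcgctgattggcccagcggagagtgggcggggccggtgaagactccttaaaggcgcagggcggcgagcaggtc
Hspa1b, chr17:34959239-34959488, minus strand: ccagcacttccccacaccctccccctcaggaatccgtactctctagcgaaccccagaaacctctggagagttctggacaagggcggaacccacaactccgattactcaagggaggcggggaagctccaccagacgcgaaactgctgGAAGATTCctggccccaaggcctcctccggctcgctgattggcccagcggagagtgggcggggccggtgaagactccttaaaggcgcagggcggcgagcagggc
Hsph1, chr5:149636337-149636586, minus strand: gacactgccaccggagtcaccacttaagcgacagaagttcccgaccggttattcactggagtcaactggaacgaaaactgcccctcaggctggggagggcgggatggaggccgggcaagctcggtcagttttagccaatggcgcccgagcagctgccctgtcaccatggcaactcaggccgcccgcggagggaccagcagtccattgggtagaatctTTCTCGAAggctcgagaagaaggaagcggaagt
Dnaja1, chr4:40722218-40722467, plus strand: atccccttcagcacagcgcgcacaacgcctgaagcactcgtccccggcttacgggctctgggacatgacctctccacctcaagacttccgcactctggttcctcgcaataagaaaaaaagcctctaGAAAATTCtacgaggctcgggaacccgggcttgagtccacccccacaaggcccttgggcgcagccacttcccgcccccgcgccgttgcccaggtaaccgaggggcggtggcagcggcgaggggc
Hspa4, chr11:53300480-53300729, minus strand: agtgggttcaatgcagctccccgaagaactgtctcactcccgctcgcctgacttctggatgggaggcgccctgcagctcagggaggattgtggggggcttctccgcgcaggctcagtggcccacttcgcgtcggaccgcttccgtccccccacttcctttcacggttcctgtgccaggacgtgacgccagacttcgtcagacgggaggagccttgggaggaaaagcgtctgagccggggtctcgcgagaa
The Hspa1a and Hspa1b promoters were the same at 98.8% of 250 bases. Counted in bases before the start, with the Hspa1a base first, they differed by C207T, T204C and T2G. Both carried GAAGATTC from 104 to 97 bases before the start. In Hsph1 the element was TTCTCGAA, from 33 to 26 bases before the first of 2 start sites. In Dnaja1 it was GAAAATTC, from 124 to 117 bases before the first of 3 start sites, and the promoters of the other start sites had none. Neither Dnajb1 start site had one. The 3-unit element (GAANNTTCNNGAA or TTCNNGAANNTTC), which contains the 2-unit element, occurred in none of the 6 genes' promoters. Both motifs were searched on both strands. Of the 32851 promoters of 250 bases in the table, 12.8% held the 2-unit and 0.466% the 3-unit element, so a 2-unit match is common. A match describes letters only.

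Of the 10 chaperone genes, 7 rose in libraries labelled Nat10-CKO, 0 fell and 3 did not pass the test (limma on log2(FPKM + 1), Benjamini-Hochberg adjusted p under 0.05 over all 11996 genes tested). The background was high, since 40.5% of all tested genes were called, 24.4% as higher and 16.0% as lower. In 8 of the 10, all 3 libraries labelled Nat10-CKO lay above all 3 Nat10flox/flox libraries, an order found in 31.5% of all tested genes. The median log2 fold change of the 10 was 1.11, against 0.035 over all tested genes. All 10 passed the filter of a mean of 1 FPKM over the 6 libraries, but Hspa1a had a Nat10flox/flox mean below 1 FPKM and passed through the other group. The lowest read number of any member in any library was 62.

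**Figure D1:**
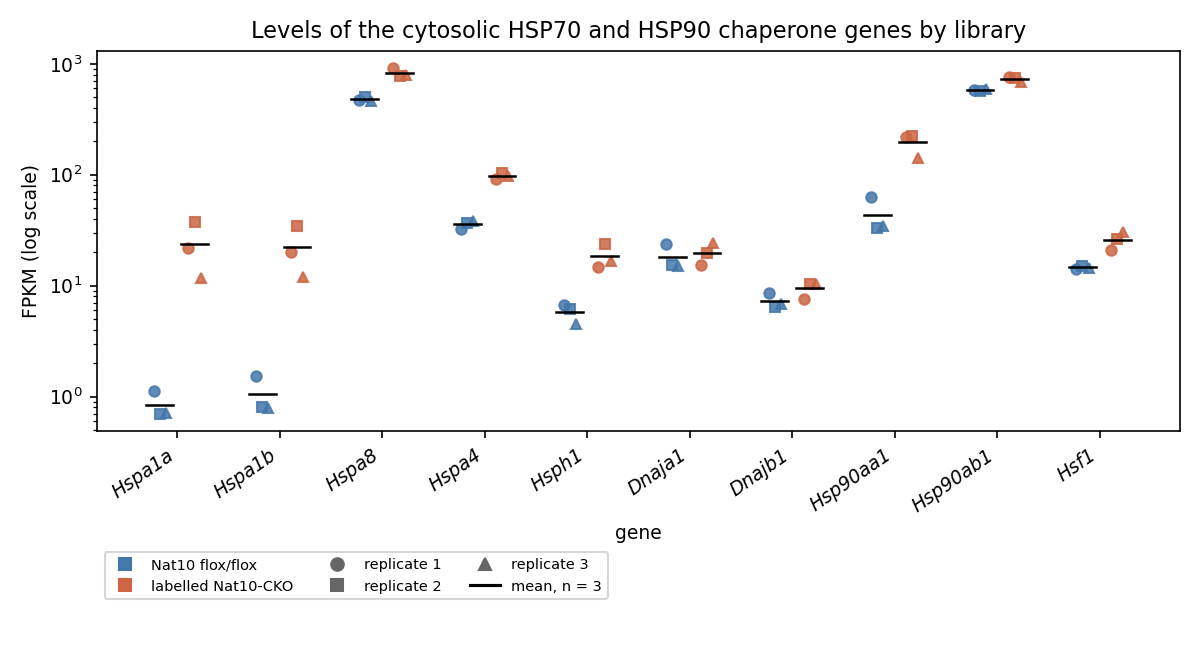
FPKM of each chaperone gene in each of the 6 libraries on a log axis, with Nat10flox/flox in blue, libraries labelled Nat10-CKO in orange, symbols for the replicates and black bars for group means (n = 3). Hspa1a and Hspa1b lie near 1 FPKM in blue and between 11.8 and 37.5 FPKM in orange, Hspa8 and Hsp90ab1 lie at 458 FPKM or more in all libraries, and only Dnaja1 and Dnajb1 have overlapping groups.

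The inducible HSP70 genes had the largest differences of the family. Hspa1a and Hspa1b are neighbouring single-exon copies that encode stress-induced HSP70 and are normally low in unstressed tissue. Hspa1a (gene ID 193740, GRCm39 chromosome 17, 35188335 to 35191132, minus strand) was at 1.13, 0.700 and 0.704 FPKM in the Nat10flox/flox libraries and at 21.7, 37.5 and 11.8 FPKM in those labelled Nat10-CKO. The lowest of the latter was 10 times or more above each of the former, and the groups did not overlap. Group means of 0.845 ± 0.249 and 23.6 ± 12.9 FPKM (SD, n = 3) differed 28.0-fold (log2 fold change 3.61 ± 0.37 SE, limma adjusted p = 0.000769). Among all tested genes, 31, Hspa1a included, had a fold of the means at least this high. Its recovered reads numbered 129, 62 and 70 against 2236, 3639 and 1121. Hspa1b (gene ID 15511, chromosome 17, 35175405 to 35178214, minus strand) was at 1.55, 0.809 and 0.781 FPKM and at 19.96, 34.8 and 12.1 FPKM in the same order. The groups again did not overlap, Nat10flox/flox replicate 1 was the highest of its group in both genes, and replicate 2 was the highest of those labelled Nat10-CKO. Group means were 1.05 ± 0.434 and 22.3 ± 11.5 FPKM, a 21.3-fold difference (log2 fold change 3.41 ± 0.36, limma adjusted p = 0.00081).

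The copies could not be fully separated. Of the 150-base windows of the Hspa1a transcript in GENCODE vM39, 38.1% also lay in Hspa1b, and 40.5% of those of Hspa1b lay in Hspa1a, while the treatment of reads with several matches was not given in the sources used here. Their summed level does not depend on that split between them: it was 2.68, 1.51 and 1.48 FPKM in the Nat10flox/flox libraries and 41.6, 72.2 and 23.8 FPKM in those labelled Nat10-CKO. With the reads of both counted as 1 gene, the log2 fold change was 3.91 ± 0.38 (limma adjusted p = 0.000647). The pseudocount of 1 weighs on genes this low, and with 0.1 the log2 fold change was 4.53 for Hspa1a and 4.22 for Hspa1b. Of all pairs of members, these copies had the most alike profiles over the 6 libraries (root mean square difference 0.126 in centred log2(FPKM + 1)).

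Hspa8, the gene of the constitutive HSC70, was one of the most abundant mRNAs of these hearts and rose less. Hspa8 (gene ID 15481, chromosome 9, 40712572 to 40716498, plus strand) stood at 470.5, 506 and 458 FPKM in the Nat10flox/flox libraries and at 915, 783 and 793 FPKM in those labelled Nat10-CKO. The groups were well apart, and Nat10-CKO replicate 1 was the highest. The means of 478 ± 24.9 and 831 ± 73.5 FPKM differed 1.74-fold (log2 fold change 0.79 ± 0.13, limma adjusted p = 0.00417). By mean FPKM over the tested genes Hspa8 ranked 91 in Nat10flox/flox and 42 in libraries labelled Nat10-CKO. Of the 150-base windows of its transcript 55.4% also lay in 4 processed copies, mostly in the pseudogene Gm15459, so its count is uncertain to the extent that reads were shared. Gm15459 was listed at 52.4, 9.15 and 9.44 FPKM in Nat10flox/flox and at 17.7, 15.5 and 16.2 FPKM in libraries labelled Nat10-CKO, small beside Hspa8 in every library.

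On the scale of transcripts per length, the rise of Hspa8 added more HSP70 mRNA than the inducible copies did. The sum of Hspa1a, Hspa1b and Hspa8 was 473, 508 and 459.7 FPKM in Nat10flox/flox and 957, 856 and 817 FPKM in libraries labelled Nat10-CKO. Group means were 480.2 ± 24.8 and 876 ± 72.3 FPKM, a 1.83-fold difference with no overlap between the groups. The inducible copies made up 0.566, 0.297 and 0.323% of that sum in Nat10flox/flox and 4.35, 8.44 and 2.92% in libraries labelled Nat10-CKO. The mean share thus went from 0.396 ± 0.148% to 5.24 ± 2.86%, 13.2-fold, and from 9.19-fold without Nat10-CKO replicate 2 to 16.9-fold without Nat10flox/flox replicate 1. Within libraries, the log2 ratio of the inducible copies to Hspa8 differed by 3.12 (exact two-sided permutation test, p = 0.1, the smallest that 3 against 3 allows). That ratio had 1 added to both levels, which weighs on the low copies, so the scaling between libraries was not fully removed. Without the added 1 the difference was 3.72.

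**Figure D2:**
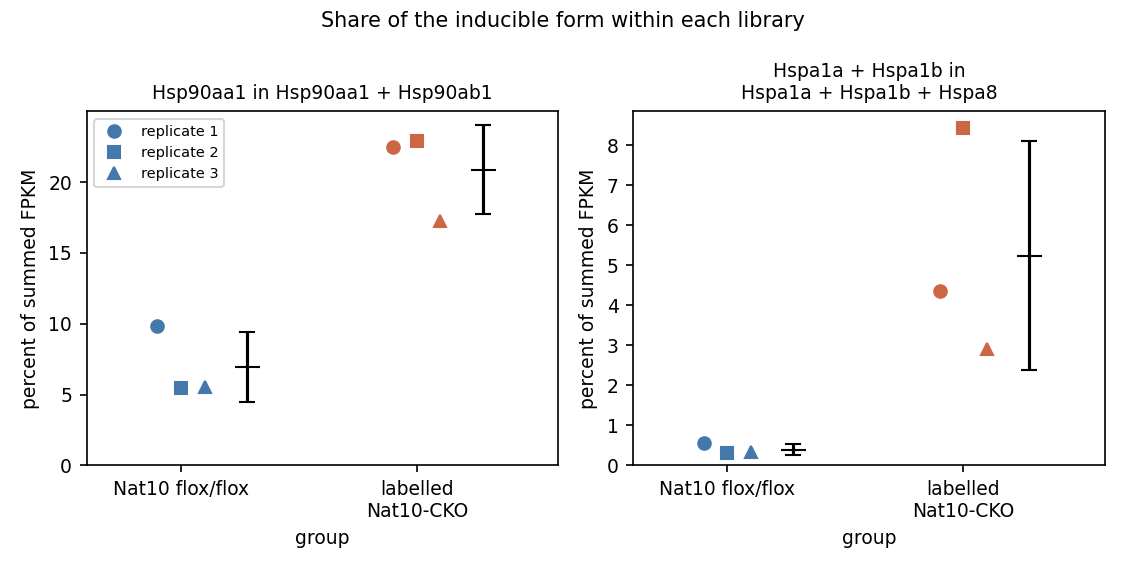
Share of the inducible form in percent of summed FPKM, for HSP90 on the left and HSP70 on the right, in each library (blue Nat10flox/flox, orange labelled Nat10-CKO), with mean and SD in black (n = 3). The HSP90 share lies between 5.47 and 9.81% in blue and between 17.3 and 22.9% in orange, and the HSP70 share between 0.297 and 0.566% in blue and between 2.92 and 8.44% in orange.

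Both HSP110 genes rose. Hspa4 and Hsph1 encode large relatives of HSP70 that act as its nucleotide exchange factors and, with it, in the recovery of aggregated protein. Hspa4 (gene ID 15525, chromosome 11, 53150641 to 53191306, minus strand, 19 exons) was at 32.2, 36.7 and 38.0 FPKM in Nat10flox/flox and at 92.3, 103 and 97.8 FPKM in libraries labelled Nat10-CKO. Each group was tight, and the gap between them was wide. The means of 35.6 ± 3.03 and 97.8 ± 5.58 FPKM differed 2.75-fold (log2 fold change 1.43 ± 0.11, limma adjusted p = 0.000377), the smallest adjusted p of the family. Hsph1 (gene ID 15505, chromosome 5, 149540308 to 149562594, minus strand, 17 exons) was lower in level, at 6.76, 6.19 and 4.497 FPKM and at 14.8, 23.6 and 16.7 FPKM. Nat10-CKO replicate 2 was the highest, as for Hspa1a and Hspa1b, and the groups did not overlap. The means of 5.81 ± 1.17 and 18.4 ± 4.64 FPKM differed 3.16-fold (log2 fold change 1.495 ± 0.21, limma adjusted p = 0.00199). The log2 ratio of Hsph1 to Hspa4 differed by 0.062 between the groups (exact two-sided permutation test, p = 0.9). That sign turned to -0.13 without Nat10flox/flox replicate 3 and to -0.083 without Nat10-CKO replicate 2, so no direction can be given for it. The summed level of both was 39.0, 42.9 and 42.5 FPKM against 107, 127 and 114 FPKM. No 150-base window of either transcript lay in a copy elsewhere.

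The 3 protein-coding genes whose centred profiles over the 6 libraries were most like that of Hspa4 were Rasl11b, Ranbp3 and Pwp2, with root mean square differences of 0.0353, 0.0612 and 0.0620 in log2(FPKM + 1). Rasl11b encodes a small GTPase of the RAS family, Ranbp3 a cofactor of nuclear export and Pwp2 a protein of small ribosomal subunit assembly. Their likeness rests on 6 libraries in 2 groups, and all 4 genes had tight groups with a wide gap. The means in Nat10flox/flox and in libraries labelled Nat10-CKO were 14.6 ± 1.34 and 40.3 ± 1.61 FPKM for Rasl11b. For Ranbp3 they were 13.6 ± 0.941 and 38.0 ± 1.84 FPKM, and for Pwp2 4.99 ± 0.275 and 15.0 ± 0.278 FPKM.

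The J-domain genes among the members, Dnaja1 and Dnajb1, did not pass the test. Their proteins are the main cytosolic partners that deliver clients to HSP70, and Dnajb1 is the classical HSP40 of the heat shock response. Dnaja1 (gene ID 15502, chromosome 4, 40722468 to 40734965, plus strand, 9 exons) was at 23.5, 15.2 and 15.2 FPKM in Nat10flox/flox and at 15.4, 19.6 and 24.2 FPKM in libraries labelled Nat10-CKO. The groups overlapped, with Nat10flox/flox replicate 1 almost as high as the highest library of the other group. The means of 18.0 ± 4.81 and 19.7 ± 4.38 FPKM had a log2 fold change of 0.13 ± 0.22 (limma adjusted p = 0.654). Of 5424 windows of 150 bases in its GENCODE vM39 transcript, 4297 also lay in annotated transcripts of its opposite-strand neighbour Smu1. This splicing gene rose 1.65-fold (limma adjusted p = 0.00262). The GENCODE transcript has 5573 bases, while the FPKM rest on a Dnaja1 of 3604 bases that lay 683 bases from Smu1. How far the shared windows bear on the counted Dnaja1 was not tested. Dnajb1 (gene ID 81489, chromosome 8, 84334804 to 84339282, plus strand, 3 exons) was at 8.57, 6.43 and 6.78 FPKM and at 7.58, 10.4 and 10.4 FPKM. Here the overlap came from replicate 1 of both groups, which lay in the reverse order of the others. The means of 7.26 ± 1.15 and 9.49 ± 1.66 FPKM had a log2 fold change of 0.34 ± 0.16 (limma adjusted p = 0.132).

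Nat10flox/flox replicate 1 had the highest ganglion neuron sum and Nat10-CKO replicate 1 the lowest cardiomyocyte sum. Both J-domain calls changed without these libraries, which were picked with earlier results of these data known. The cardiomyocyte markers of Nat10-CKO replicate 1 differed among themselves. Mb and Myh6 were the lowest of all libraries there, at 1404 and 1958 FPKM, and Tnnt2 the highest, at 4301 FPKM. Replicate 1 of each group was not the only library that differed in markers. The fibroblast sum was 330 FPKM in Nat10-CKO replicate 3, against 510 and 488 FPKM in the others of its group. With replicate 1 of both groups left out, Dnaja1 had a log2 fold change of 0.49 ± 0.13 (limma adjusted p = 0.0335) and Dnajb1 one of 0.59 ± 0.11 (limma adjusted p = 0.00911). Without Nat10-CKO replicate 1 alone, Dnajb1 passed at 0.48 ± 0.13 (limma adjusted p = 0.0319), and Dnaja1 did not at 0.29 ± 0.22 (limma adjusted p = 0.322). Without Nat10flox/flox replicate 1 alone, neither passed (limma adjusted p = 0.232 for Dnaja1 and 0.085 for Dnajb1). Dnaja1 had a log2 fold change of -0.017 without Nat10-CKO replicate 3 and of -0.091 with quantile normalization, so no direction can be given for it. Dnajb1 also passed with libraries rescaled to protein-coding genes (limma adjusted p = 0.0455) and with array weights (limma adjusted p = 0.00397). The part of other cell types in these values was not tested. The summed level of the J-domain pair was 32.1, 21.7 and 22.0 FPKM in Nat10flox/flox and 23.0, 30.04 and 34.7 FPKM in libraries labelled Nat10-CKO (exact two-sided permutation test, p = 0.5). Per FPKM of this pair there were 14.7, 23.4 and 20.9 FPKM of Hspa1a, Hspa1b and Hspa8 in Nat10flox/flox and 41.6, 28.5 and 23.6 FPKM in libraries labelled Nat10-CKO. The groups did not overlap, by a margin that was small against their spread (23.4 against 23.6, exact two-sided permutation test, p = 0.1). The log2 ratio of Dnajb1 to Dnaja1 differed by 0.21 (exact two-sided permutation test, p = 0.3).

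The HSP90 genes differed in size of change. Hsp90aa1 encodes the stress-inducible alpha form and Hsp90ab1 the constitutive beta form, and both proteins serve the same broad set of clients. Hsp90aa1 (gene ID 15519, chromosome 12, 110657470 to 110662829, minus strand, 11 exons) was at 63.0, 33.1 and 34.4 FPKM in Nat10flox/flox and at 221, 222 and 143 FPKM in libraries labelled Nat10-CKO. Nat10flox/flox replicate 1 was the high library of its group, and the lowest library labelled Nat10-CKO was still more than 2 times above it. The means of 43.5 ± 16.9 and 195 ± 45.5 FPKM differed 4.49-fold (log2 fold change 2.18 ± 0.29, limma adjusted p = 0.0019). Without Nat10flox/flox replicate 1 the fold of the means was 5.78 (log2 fold change 2.47 ± 0.23, limma adjusted p = 0.00222). Of the 150-base windows of the transcript 32.5% also lay in copies elsewhere, mostly in the pseudogene Gm12346, which was listed at 0.593 to 1.07 FPKM in Nat10flox/flox and at 2.13 to 3.15 FPKM in libraries labelled Nat10-CKO.

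Hsp90ab1 (gene ID 15516, chromosome 17, 45878704 to 45884187, minus strand, 11 exons) was at 579, 573 and 588 FPKM in Nat10flox/flox and at 761, 750.1 and 684 FPKM in libraries labelled Nat10-CKO. The groups did not overlap, and the Nat10flox/flox libraries were close together. The means of 580.1 ± 7.44 and 732 ± 41.8 FPKM had a ratio of 1.26 (log2 fold change 0.33 ± 0.12), which missed the threshold (limma adjusted p = 0.0679). It passed in 3 of 18 other settings: at 0.49 with libraries rescaled to protein-coding genes (limma adjusted p = 0.0238), at 0.33 without the variance trend (limma adjusted p = 0.0329) and at 0.36 with array weights (limma adjusted p = 0.00606). The lowest value over the 18 was 0.22, with mitochondrially encoded genes left out (limma adjusted p = 0.228). Hsp90aa1 made up 9.81, 5.47 and 5.53% of the summed HSP90 FPKM in Nat10flox/flox and 22.5, 22.9 and 17.3% in libraries labelled Nat10-CKO. The mean share was 6.93 ± 2.49% against 20.9 ± 3.13%, a 3.01-fold difference, and 3.798-fold without Nat10flox/flox replicate 1. The log2 ratio of Hsp90aa1 to Hsp90ab1 differed by 1.84 (exact two-sided permutation test, p = 0.1, the smallest possible) and by 1.69 to 2.14 with any 1 library left out. The summed HSP90 level was 642, 606 and 622 FPKM against 982, 973 and 827 FPKM, a 1.49-fold difference of the means without overlap. The beta form thus remained most of the HSP90 mRNA in each library.

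Hsf1, the gene of the heat shock transcription factor, rose as well. Hsf1 (gene ID 15499, chromosome 15, 76361562 to 76385355, plus strand, 12 exons) was at 14.0, 15.2 and 14.6 FPKM in Nat10flox/flox and at 20.8, 26.2 and 30.3 FPKM in libraries labelled Nat10-CKO. The Nat10flox/flox libraries were nearly equal, and all 3 of the others lay above them. The means of 14.6 ± 0.576 and 25.8 ± 4.73 FPKM differed 1.77-fold (log2 fold change 0.77 ± 0.15, limma adjusted p = 0.00698). HSF1 activity is set by release from chaperones and by modification of the protein, which mRNA levels do not show. Among the libraries labelled Nat10-CKO, the one highest in Hsf1 (replicate 3) was the lowest in Hspa1a, Hspa1b and Hsp90aa1, and 3 libraries allow no test of that order. Bop1, a ribosome biogenesis gene that lies 112 bases away on the opposite strand, was at 10.5 ± 0.378 FPKM in Nat10flox/flox and at 42.6 ± 6.63 FPKM in libraries labelled Nat10-CKO (4.05-fold, log2 fold change 1.91, limma adjusted p = 0.000262). Of 4922 windows of 150 bases in the Hsf1 transcript of GENCODE vM39, 1811 also lay in annotated transcripts of Bop1 or Dgat1. That transcript has 5071 bases, while the FPKM rest on an Hsf1 of 2626 bases that overlapped neither gene. How far the shared windows bear on the counted Hsf1 was not tested. The libraries were directional, but whether counting used the strand was not given in the sources used here.

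**Figure D3:**
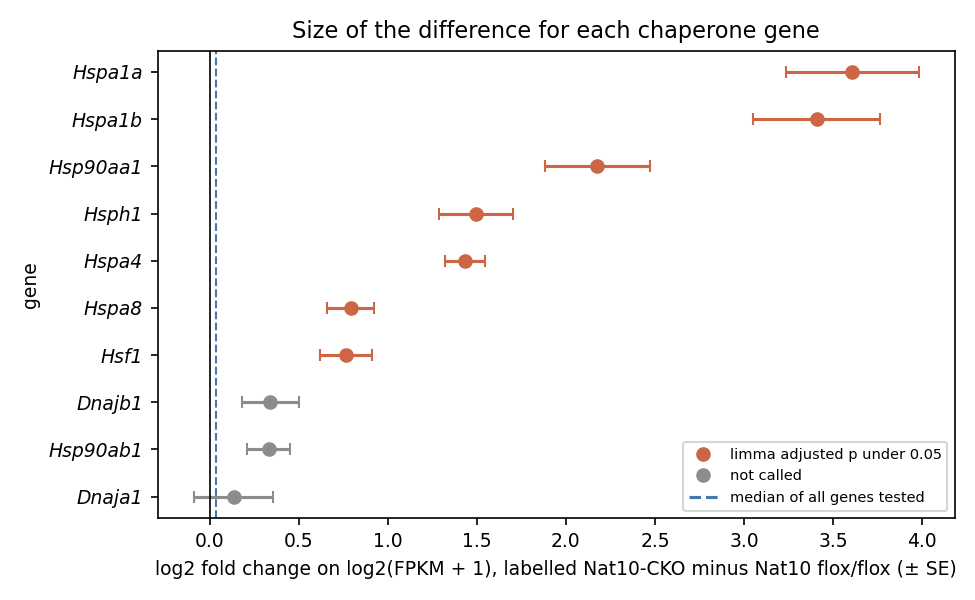
Log2 fold change of each chaperone gene on log2(FPKM + 1), libraries labelled Nat10-CKO minus Nat10flox/flox, with bars for ± 1 SE, orange where the limma adjusted p was under 0.05 and grey where not; the dashed line is the median of all tested genes (0.035). The 7 orange genes run from 0.77 for Hsf1 to 3.61 for Hspa1a, and Dnajb1, Hsp90ab1 and Dnaja1 are grey, between 0.13 and 0.34.

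The order of levels within the family differed between the groups. In Nat10flox/flox it ran, by mean FPKM, from Hsp90ab1 and Hspa8 through Hsp90aa1, Hspa4, Dnaja1, Hsf1, Dnajb1 and Hsph1 to Hspa1b and Hspa1a. Neighbours whose libraries overlapped were Hsp90aa1 with Hspa4, Dnajb1 with Hsph1, and Hspa1b with Hspa1a. In the libraries labelled Nat10-CKO Hspa8 came first, followed by Hsp90ab1, Hsp90aa1 and Hspa4, each apart from the next. Hsf1, Hspa1a, Hspa1b, Dnaja1 and Hsph1 followed with overlapping neighbours, and Dnajb1 was last and apart. Among the tested genes, Hspa1a moved from rank 11816 to 2381, Hspa1b from 11668 to 2508, Hsp90aa1 from 1091 to 260 and Hsph1 from 6459 to 2981, while Dnaja1 went from 2623 to 2806.

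Cofactors and relatives of these chaperones, with other chaperone genes, were read from 7 lists of 74 genes, of which 72 were tested. Over all lists 31 rose (43.1% of those tested, beside the 24.4% of all genes) and 5 fell, beside 16.0% of all genes. With a filter of a mean of at least 5 FPKM, 2305 of 7224 genes were called higher, and 33 of the list genes. The lists were chosen with earlier results of these data known. Among 6 other cytosolic HSP70 and HSP110 genes, 1 rose and 2 fell, with a median log2 fold change of 0.027. Hspa1l, which lies 546 bases from Hspa1a on the opposite strand and encodes an HSP70 best known from testis, rose from 1.99 ± 0.299 to 9.28 ± 1.62 FPKM (4.67-fold, limma adjusted p = 0.000393). Its sequence is close to that of Hspa1a and Hspa1b, and it shares 150-base windows with both. Hspa12a, a distant HSP70 relative, fell from 7.57 ± 3.53 to 1.48 ± 0.656 FPKM (log2 fold change -1.75, limma adjusted p = 0.00633). Its endothelial relative Hspa12b fell from 16.5 ± 1.26 to 11.7 ± 1.54 FPKM (log2 fold change -0.47, limma adjusted p = 0.022), beside the fall of all 6 endothelial markers. Hspa12b was not called without Nat10flox/flox replicate 2 or 3 or without Nat10-CKO replicate 2 (limma adjusted p = 0.073 to 0.079).

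Of 12 other cytosolic J-domain genes, 7 rose (58.3%, beside 24.4% of all tested genes) and 0 fell, with a median log2 fold change of 0.44. The number that rose was 5 to 9 over the 18 other settings of the fit. Dnajb6, named after its value was seen, passed narrowly (limma adjusted p = 0.0475). It was not called with any single Nat10flox/flox library left out (limma adjusted p = 0.080 to 0.150). Dnajb4, a close relative of Dnajb1, rose from 14.9 ± 1.45 to 62.3 ± 10.5 FPKM (4.17-fold, limma adjusted p = 0.000367), Dnaja4 from 16.7 ± 1.61 to 61.6 ± 5.02 FPKM (3.68-fold, limma adjusted p = 0.000227) and Dnajb2 from 22.2 ± 1.94 to 61.1 ± 7.18 FPKM (2.75-fold, limma adjusted p = 0.000511). In libraries labelled Nat10-CKO, the mean FPKM of each of these 3 was above that of Dnaja1. Of 8 nucleotide exchange factors and other HSP70 cofactors, 4 rose and 0 fell (median 0.39). Bag3, which couples HSP70 to small heat shock proteins and to autophagy at the sarcomere, rose from 84.9 ± 2.42 to 327 ± 42.9 FPKM (3.85-fold, limma adjusted p = 0.000274). Bag5 and Hspbp1 rose 1.63-fold and 1.419-fold, as did Bag2, 1.46-fold, which was chosen for naming after its value was seen. Hspbp1 and Bag2 were not called without Nat10flox/flox replicate 1 (limma adjusted p = 0.053 and 0.065) or without its replicate 2 (limma adjusted p = 0.083 and 0.082). Nor was Hspbp1 called without Nat10-CKO replicate 3, or Bag2 without Nat10-CKO replicate 2.

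Of 20 HSP90 cochaperones, 5 rose and 1 fell, with a median log2 fold change of 0.24. The rising share of 25% was near the 24.4% of all genes. Fkbp5, an HSP90-bound immunophilin and target of the glucocorticoid receptor, rose from 6.35 ± 2.51 to 43.1 ± 11.4 FPKM (6.79-fold, log2 fold change 2.62 ± 0.29, limma adjusted p = 0.000939). Stip1, which links HSP70 to HSP90 and passes clients on, rose from 44.8 ± 1.52 to 84.1 ± 7.64 FPKM (1.88-fold, limma adjusted p = 0.00145). Ahsa1, the activator of the HSP90 ATPase, rose 1.80-fold, Nudc 1.71-fold and Ttc4 1.36-fold, and these 3 were chosen for naming after their values were seen. Itgb1bp2, the muscle cochaperone melusin, fell from 8.14 ± 1.04 to 2.02 ± 1.003 FPKM (log2 fold change -1.66 ± 0.27, limma adjusted p = 0.00378). The number of cochaperones that rose was 9 without Nat10-CKO replicate 1, 3 with quantile normalization and 11 with array weights. Ttc4 was not called without Nat10flox/flox replicate 1 (limma adjusted p = 0.060). Of 8 regulators and relatives of HSF1, 6 were tested and 2 rose (median 0.18): Akt1s1, an inhibitor of mTORC1, 1.87-fold and the acetyltransferase gene Ep300 1.56-fold. Hsf2 and Hsf4, which encode related factors and were chosen for naming after their values were seen, did not pass the test, at means of 1.59 and 2.06 FPKM and of 2.67 and 2.74 FPKM.

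The chaperonin CCT, a ring of related subunits that folds actin and tubulin, and its partner prefoldin had the highest share of rising genes among the 7 lists. Of 14 genes 11 rose and 1 fell, with a median log2 fold change of 0.69. The number that rose was 8 to 11 over the 18 other settings of the fit. Without Nat10-CKO replicate 2 it was 8 of 14, beside 7 of the 12 other J-domain genes, and CCT and prefoldin no longer led. Cct3 rose from 52.2 ± 2.30 to 126 ± 19.6 FPKM (2.41-fold, limma adjusted p = 0.00098), Cct6a 1.98-fold and Cct8 1.86-fold. All 8 CCT genes rose, the least of them Tcp1 (named after its value was seen), 1.32-fold, which was not called with any of 4 single libraries left out (limma adjusted p = 0.057 to 0.106). The gene that fell was the prefoldin subunit gene Pfdn5, named after its value was seen (log2 fold change -0.40 ± 0.10, limma adjusted p = 0.021). It did not pass without Nat10flox/flox replicate 1, without its replicate 2 or without Nat10-CKO replicate 2. Among 6 HSP70 and HSP90 relatives of the endoplasmic reticulum and mitochondria, 1 rose and 1 fell (median -0.087). Hspa5, the HSP70 of the endoplasmic reticulum, rose from 93.6 ± 11.8 to 142 ± 10.7 FPKM (1.51-fold, limma adjusted p = 0.0138). Hsp90b1, the HSP90 of the same compartment, fell from 101 ± 12.7 to 74.8 ± 3.69 FPKM (log2 fold change -0.42 ± 0.13, limma adjusted p = 0.038). The fall of Hsp90b1 was not called with any of 4 single libraries left out, and the rise of Hspa5 was lost without Nat10flox/flox replicate 3.

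**Figure D4:**
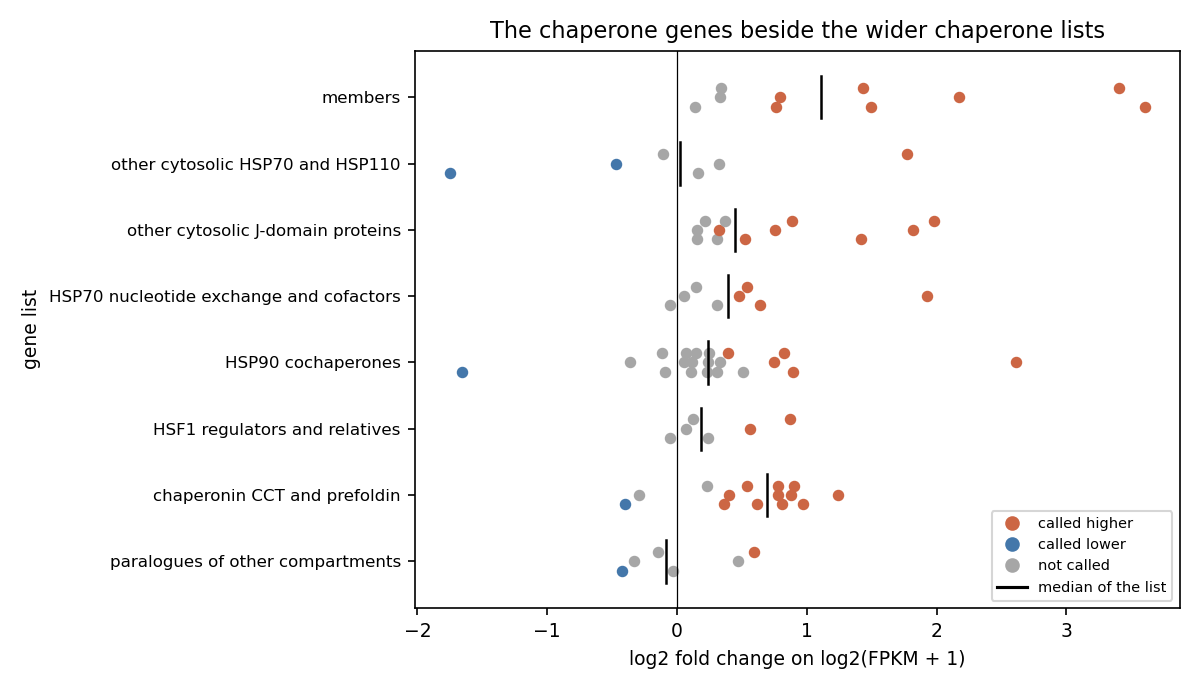
Log2 fold change on log2(FPKM + 1) of each tested gene in the family and in 7 lists of related chaperones and cofactors, 1 dot per gene, orange called higher, blue called lower and grey not called, with a black bar at each list's median. The medians run from -0.087 for the relatives of other compartments to 0.69 for CCT and prefoldin, below the 1.11 of the 10 chaperone genes.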

How the data were processed

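Hearts of 10-day-old mice gave 6 poly(A) RNA libraries (3 per group), sequenced as directional 150 bp read pairs, per the labels' protocols. Per the submitters' processing notes, the build was GRCm39 and the tools were CASAVA, HISAT2 2.2.1, featureCounts 2.0.6 and DESeq2 1.42.0. The authors deposited FPKM, 1 column per library. Gene length definition, strand setting and treatment of multiply mapped reads were not given in the sources used here. FPKM times length gave whole reads for 100% of values (tolerance 0.01 read), from which depth was read. For a 1 kb gene, 1 read equalled 0.0246 to 0.0316 FPKM. This scale did not follow the reads in genes alone. It was 0.0281 in Nat10flox/flox replicate 3 with 36672827 reads and 0.0271 in Nat10-CKO replicate 1 with 35243886 reads.

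Groups came from the labels. Genes averaging 1 FPKM or more over the libraries were fitted on log2(FPKM + 1) with limma 3.58.1 in R 4.3.3 (lmFit, eBayes with a trend, two-sided, Benjamini-Hochberg adjusted p under 0.05 over all tested genes). On this scale a log2 fold change understates low genes. The fit was also run on simulated reads with far fewer changed genes than were called here. That run checked the code and does not measure the error rate of these calls. A fold is the ratio of mean FPKM. Ratios within libraries, as log2((FPKM + 1)/(FPKM + 1)), and sums used an exact two-sided permutation test (SciPy 1.17.1, Python 3.11.15). Adjusted over the 4 ratios (Benjamini-Hochberg), p was 0.2 for Hsp90aa1 over Hsp90ab1 and for the inducible copies over Hspa8, 0.4 for Dnajb1 over Dnaja1 and 0.9 for Hsph1 over Hspa4; tests on sums were not adjusted. The members, lists and alternatives were chosen with earlier results of these data known. All members were named, up to 3 genes with the smallest adjusted p of each wider list, and the 3 protein-coding genes closest in profile to the member with the smallest adjusted p. Other list genes and neighbours were picked with their values in view. Transcript windows came from GENCODE vM39. Alternatives were 18 other settings of the fit, among them pseudocounts, filters, scalings, weights, recovered reads with voom, the replicate number as a block and each library left out. Some cell type markers are not reported here. Figures used matplotlib 3.10.9.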

Additional observations from a re-analysis of the deposited data

How the results depend on the processing

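The 7 rising members (Hspa1a, Hspa1b, Hspa4, Hspa8, Hsph1, Hsp90aa1, Hsf1) were called in all 18 other settings of the fit. The family count was 7 to 9 rising and 0 falling. Called only elsewhere were Hsp90ab1 at 0.49 (protein-coding rescaling), 0.33 (no trend) and 0.36 (array weights); Dnajb1 at 0.48 (protein-coding rescaling), 0.52 (array weights), 0.59 (both replicates 1 left out) and 0.48 (without Nat10-CKO replicate 1); and Dnaja1 at 0.49 (both replicates 1 left out). Over single libraries left out, Dnajb1 ranged from 0.27 to 0.48 and was called in 1 of 6. Dnaja1 reversed to -0.091 with quantile normalization and ranged from -0.017 to 0.33 over single libraries left out; the ratio of Hsph1 to Hspa4 ranged from -0.13 to 0.23, reversing to -0.13 and -0.083. Genes called lower numbered 1159 with a mean FPKM of at least 5, 3007 with array weights and 1162 to 1951 with 1 library left out, against 1924; falling genes of the wider lists numbered 3 with protein-coding rescaling and 2 to 5 with 1 library left out. The causes were not tested. The higher share of all calls, 60.4%, was 72.4% with protein-coding rescaling, which shifted the median of all genes by 0.13, and 48.7% without mitochondrially encoded genes. Same-numbered libraries correlated at 0.0649, 0.0373 and 0.105 in their deviations, and differently numbered ones at -0.116 to 0.0722. With 3 libraries per group these correlations do not decide pairing. The labels do not state pairs, so the numbers were not taken as pairs. With the replicate block 2666 genes were called higher and 1724 lower, and 7 members rose. With 3 hearts per group the exact tests cannot go below p = 0.1.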

Other observations

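The Hspa8 pseudogene Gm15459 was listed at 52.4 FPKM in Nat10flox/flox replicate 1 and at 9.15 to 17.7 FPKM in the other 5 libraries, while Hspa8 itself was at 470.5 FPKM in that library and at 506 and 458 FPKM in the others of its group. It was chosen for naming after its values were seen. Replicate 1 of Nat10flox/flox is also the library with 195.6 FPKM of ganglion neuron markers, led by Prph at 117 and Stmn2 at 73.5 FPKM, and whether these values belong together was not tested.

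Protein-coding genes that lie within 1 kb of a member and are transcribed from the opposite strand were read as well. Bop1 and Dgat1 beside Hsf1, Smu1 beside Dnaja1 and Hspa1l beside Hspa1a rose, 4.05-fold, 1.52-fold, 1.65-fold and 4.67-fold (limma adjusted p = 0.000262, 0.011, 0.00262 and 0.000393). Slc35b2, 106 bases from Hsp90ab1, did not pass at 13.5 ± 0.985 and 15.9 ± 0.867 FPKM (limma adjusted p = 0.123).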
